A study of Mus musculus with 8 samples.

Results

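The genes of the mitochondrial genome were examined in bulk RNA-seq libraries of mouse brown adipose tissue (BAT), 4 labelled WT and 4 labelled Cd36KO. Members were all genes of the count table whose mouse symbol starts with mt-. They were 13 of 31053 listed genes, and all 13 encode proteins. The annotation holds 37 such genes, and its 2 rRNA and 22 tRNA genes were not analysed here. Both groups were of strain C57BL6/J and labelled as 8 weeks old, and all libraries came from explanted BAT. The labels name no treatment, and the study took tissues after fasting. Cd36KO is the only description of the genotype in the labels. The study attributes its BAT transcriptome of Cd36 loss to mice with Cd36 flox/flox alleles and Csf1r-Cre, a Cre driven in macrophages and other myeloid cells. Its figure legends give the same age as the labels and its methods a later one, and whether the WT mice carried the floxed alleles or Cre is not given in the sources used here. The count column of 1 Cd36KO library has no replicate number and is referred to as the unnumbered Cd36KO library.

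Mitochondrial DNA is a small circular genome that encodes core subunits of respiratory complexes I, III and IV and of ATP synthase, while all other subunits come from nuclear genes. Both of its strands are transcribed into long RNAs, which are cut mostly at tRNAs, and most of the mRNAs are then polyadenylated. Neighbouring mRNAs thus start from the same transcript and differ in level through processing and decay. Brown adipocytes are packed with mitochondria, in which UCP1 uncouples respiration from ATP synthesis to release heat.

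Total counts per library ranged from 2679785 to 4097953. Cd36 was lower in all Cd36KO libraries than in all WT libraries, with normalized counts (counts divided by the DESeq2 size factor) of 2087 ± 216 against 2918 ± 454 (mean ± SD of 4 libraries each). Its log2 fold change was -0.48, but the adjusted p was 0.0602 by DESeq2 and 0.191 by edgeR. It passed without WT library 4 (-0.56, adjusted p = 0.00611 by DESeq2) and with the mean level of muscle genes, the muscle score, as a covariate (-0.67, adjusted p = 0.0294). The labels also name the stromal vascular fraction as cell type. The adipocyte genes Adipoq and Ucp1 nevertheless had mean normalized counts of 4898 and 5347 in WT, so adipocyte RNA was present. The study used males, whereas Xist had 772 to 1588 counts in the 8 libraries and the Y-linked Uty, Kdm5d and Eif2s3y had 0 and Ddx3y 0 to 3. The summed level of 12 skeletal muscle genes spanned 280.2 to 19691 CPM (counts scaled to a common library total) among WT libraries, with library 1 the highest, and 109 to 2395 CPM among Cd36KO libraries. The white adipocyte list spanned 244 to 1512 CPM among WT libraries and 177 to 291 CPM among Cd36KO libraries, with Wt1 and Tcf21 at 0. Of 12 muscle genes 0 passed by DESeq2 or edgeR, but 0 had a log2 fold change above 0, the median was -3.03, and 10 had an unadjusted p under 0.05 by edgeR, against 16.1% of all genes. Of 5 tested white adipocyte genes 4 fell in Cd36KO by both tools (Lep, Hoxc8, Aldh1a1 and Nnat), with a median of -2.46 over the 5, where DESeq2 called 1.53% of all genes lower and edgeR called 0.143% in either direction. In whole tissue, fewer cells of a type and less RNA per cell cannot be told apart.

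The sequences shown first are those on which the counting of these genes turns. Sequences and positions came from GENCODE M21 on build GRCm38, and bases are numbered from 1 at the 5′ end of each gene. All 13 genes lie on chromosome M without introns. A block of annotated nuclear pseudogenes on the minus strand of chromosome 1 follows the order of the mitochondrial genes from the end of mt-Co1 to the middle of mt-Nd4. In it, Gm28661 matched mt-Co2, Gm10925 matched mt-Atp6, Gm28437 matched mt-Co3 and Gm10222 matched mt-Nd4l with 100% identity, and Gm28439 (chr1:24611535-24612410) matched bases 1 to 876 of mt-Nd4 with 100% identity. Gm28438 (chr1:24612775-24613119) differed from mt-Nd3 by T3C over 345 bases. Gm29216 (chr1:24615706-24616197) differed from the last 483 bases of mt-Co1 by A1066T. The capital in each line below marks the only base in the aligned part that differs.

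mt-Nd3 bases 1 to 23: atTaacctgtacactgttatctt

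Gm28438: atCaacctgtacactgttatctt

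mt-Co1 bases 1063 to 1086: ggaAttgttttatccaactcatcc

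Gm29216: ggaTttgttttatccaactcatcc

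The match of mt-Nd4 stops at base 876 of 1378, whereas the other matches of the block reach the end of the gene or nearly so. The line below runs across that point, with the first bases past the end of the Gm28439 match in capitals.

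mt-Nd4 bases 847 to 906: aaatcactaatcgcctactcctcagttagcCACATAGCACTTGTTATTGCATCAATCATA

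Methods that prime on poly(A) tails read near 3′ ends, and whether the digital mRNA-seq service used here did so is not given in the sources used here. The ends of 5 mRNAs are shown with the stop codon, or the part of it that the gene encodes, in capitals. mt-Nd4, mt-Cytb and mt-Co3 end in a lone T past their last full codon, a stop that polyadenylation completes, whereas mt-Nd1 and mt-Atp6 encode the whole codon.

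mt-Nd4 end: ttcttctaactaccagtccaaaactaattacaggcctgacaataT

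mt-Cytb end: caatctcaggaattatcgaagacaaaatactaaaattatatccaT

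mt-Co3 end: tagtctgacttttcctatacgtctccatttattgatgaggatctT

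mt-Nd1 end: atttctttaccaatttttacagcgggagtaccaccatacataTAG

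mt-Atp6 end: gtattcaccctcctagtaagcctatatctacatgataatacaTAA

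In total, 16 annotated nuclear transcripts matched a member with at least 90% identity over at least 80% of the copy, 7 of them in the chromosome 1 block. Counts of these copies were not analysed here. Of the 75-base windows in the last 300 bases, 100% of those of mt-Co1, 99.6% of mt-Co3, and 98.7% of mt-Co2, mt-Atp6, mt-Nd3 and mt-Nd4l were found unchanged in a nuclear transcript. The share was 24.3% for mt-Nd2 and 0 for mt-Nd1, mt-Nd4, mt-Nd5, mt-Nd6, mt-Cytb and mt-Atp8. Over its whole length mt-Nd4 shared 61.5% of its windows, all upstream of its last 300 bases.

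The 13 mRNAs fell into 2 ranges of level. Per kilobase, the 6 abundant mRNAs had mean normalized counts over the 8 libraries of 384850 for mt-Nd4, 139945 for mt-Nd2, 110187 for mt-Cytb, 103243 for mt-Nd1, 7737 for mt-Co1 and 6890 for mt-Nd5. The other 7 followed at 268 for mt-Co3, 259 for mt-Nd6, 254 for mt-Atp6, 189 for mt-Co2, 126 for mt-Nd3, 58.2 for mt-Atp8 and 1.24 for mt-Nd4l. The lowest of the first range lay 25.7 times above the highest of the second. Neighbours such as mt-Cytb and mt-Nd1, mt-Co1 and mt-Nd5, or mt-Co3, mt-Nd6 and mt-Atp6 lay within each other's spread between libraries. Without division by length the 2 ranges were also apart, with mt-Co1 the lowest of the first at a mean normalized count of 11954 and mt-Co3 the highest of the second at 210.2.

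**Figure D1:**
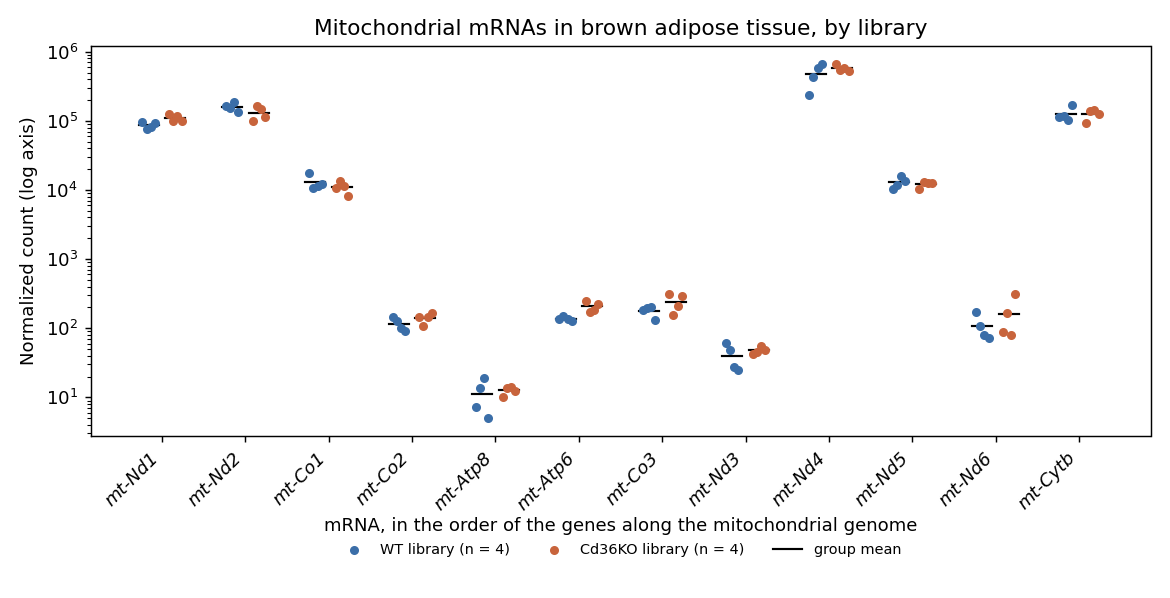
Normalized counts (log axis) of 12 mitochondrial mRNAs in the order of their genes, with a point for each of 4 WT and 4 Cd36KO libraries and a bar at each group mean; mt-Nd4l, with 0 to 2 counts, is left out. The abundant mRNAs lie at 8250 or more in every library and the others at 317 or less, and the 4 Cd36KO libraries lie above the 4 WT libraries only for mt-Nd1 and mt-Atp6.

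Genes of the same transcript thus differed widely in count. mt-Co2, mt-Atp8, mt-Atp6, mt-Co3, mt-Nd3 and mt-Nd4l, which lie next to each other between mt-Co1 and mt-Nd4, were all in the low range. Of the 7 low mRNAs, 5 had most of these 3′ windows in a nuclear copy. The other two were mt-Nd6, the single mRNA of the opposite strand, and mt-Atp8, which overlaps mt-Atp6 by 43 bases. Those last 43 bases of mt-Atp8 matched Gm10925 with 100% identity, a stretch shorter than the windows, so its share of 0 does not mean that its end lacks a copy. mt-Co1 also had a shared end and had 9463 to 19698 counts per library. Over its whole length, however, mt-Co1 shared only 39.8% of its windows. The 5 low mRNAs with a shared end shared 97.8% (mt-Nd3) to 99.9% (mt-Co3) of theirs. How reads that match more than 1 place were counted is not stated in the sources used here, and its part in these levels was not tested.

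**Figure D2:**
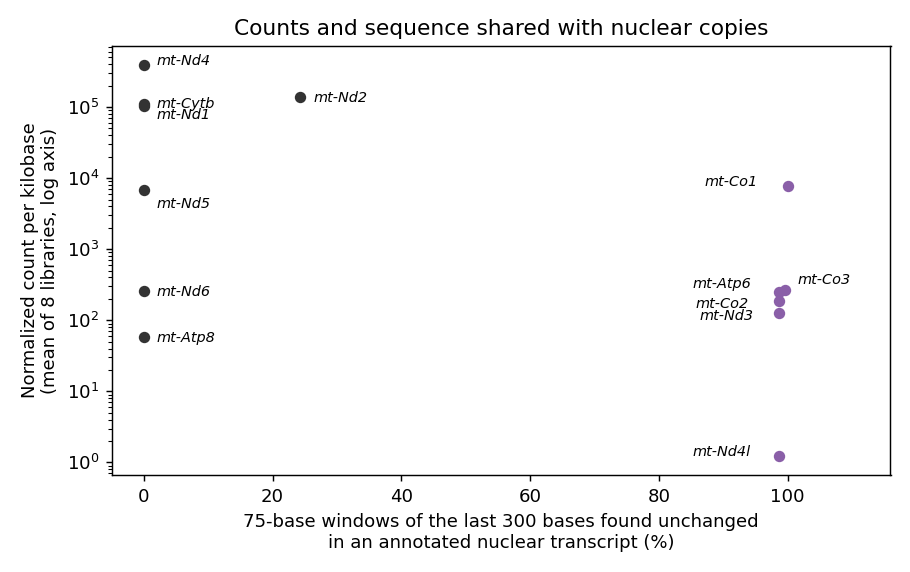
Mean normalized count per kilobase over the 8 libraries (log axis) against the share of 75-base windows in the last 300 bases that occur unchanged in an annotated nuclear transcript, for the 13 mRNAs. Purple points are the 6 genes with a shared 3′ end, of which mt-Co1 (7737 per kilobase) stands above the other 5, and mt-Nd6 and mt-Atp8 are low with a share of 0.

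The 13 mRNAs together took 23.4%, 27.7%, 30.8% and 32.1% of all counts in WT libraries 1 to 4. They took 29.4% in the unnumbered Cd36KO library and 31.7%, 32.0% and 28.5% in Cd36KO libraries 2, 3 and 4. The WT mean was 28.5% ± 3.90 and the Cd36KO mean 30.4% ± 1.73 (SD, n = 4), 1.91 percentage points apart with an SE of 2.13. The groups overlapped, and the difference was smaller than its error. WT library 1 was the lowest of all 8, with a 95% Wilson interval of 23.3% to 23.4%, and without it the difference was 0.198 points, whereas it was 3.12 points without WT library 4, the highest. The intervals cover counting error only.

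mt-Nd4 alone took 15.4% ± 4.94 of counts in WT and 18.05% ± 1.05 in Cd36KO. Without it, the remaining 12 mRNAs took 13.05% ± 1.12 of counts in WT and 12.4% ± 1.85 in Cd36KO. mt-Nd4, mt-Nd2, mt-Cytb and mt-Nd1 held between 95.5% and 97.8% of the mitochondrial counts in every library. Genes of complex I held 83.8% ± 3.73 of mitochondrial counts in WT and 85.7% ± 2.48 in Cd36KO. mt-Cytb, the complex III gene, held 14.5% ± 3.10 and 13.1% ± 2.43. The 3 complex IV genes held 1.63% ± 0.811 and 1.16% ± 0.181. All 3 shares overlapped between the groups.

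**Figure D3:**
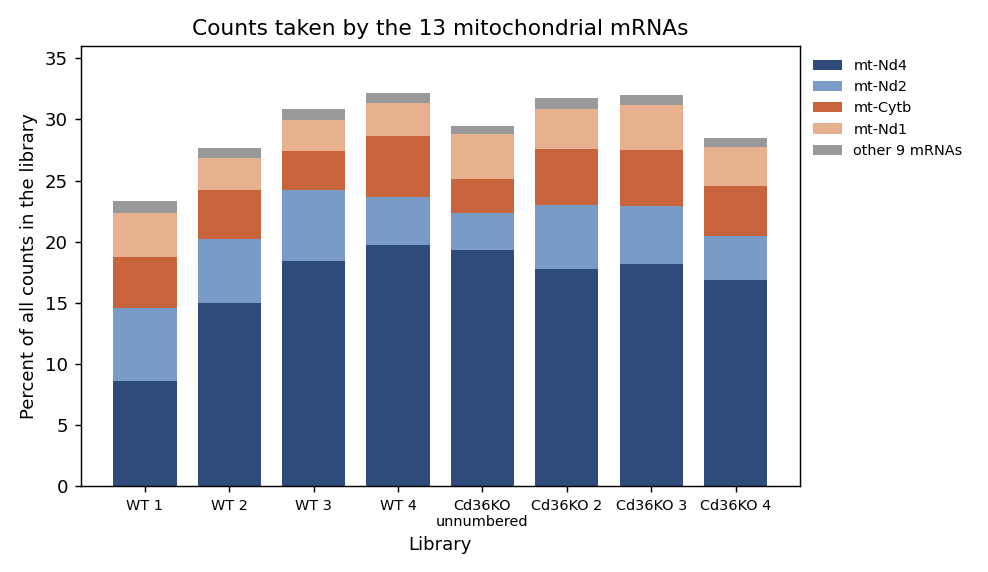
Stacked bars give the percent of each library's counts that fell on mt-Nd4, mt-Nd2, mt-Cytb, mt-Nd1 and the other 9 mitochondrial mRNAs, for 4 WT and 4 Cd36KO libraries. The totals run from 23.4% in WT library 1 to 32.1% in WT library 4, and mt-Nd4 accounts for 8.65% and 19.7% in these libraries.

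None of the 12 mRNAs with an adjusted p passed 0.05 between Cd36KO and WT by DESeq2 fitted over all genes, where 2.95% of 9617 tested genes did. At an unadjusted p under 0.05 there were 2 of 12, mt-Atp6 and mt-Nd1, against 15.6% of all tested genes. edgeR called 0, where it called 0.143% of all tested genes, and gave 1 (mt-Atp6) at an unadjusted p under 0.05, where 16.1% of all genes lay. limma called 0, where it called 0.0461% of all genes, and also gave mt-Atp6 alone at an unadjusted p under 0.05, against 11.5% of all genes. The log2 fold change was above 0 for 9 of the 12 and below 0 for 3, with a median of 0.24 against -0.01 over all genes tested. Of 10 members whose mean normalized count reached 50, 2 did not overlap between groups, both higher in Cd36KO, where 6.91% of all such genes lay. Leaving the mitochondrial genes out of the size factors changed none of these calls.

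Among the complex I genes, mt-Nd1 (ENSMUSG00000064341, chrM:2751-3707) encodes a membrane subunit near the ubiquinone site. Its normalized counts were 96120, 76632, 80619 and 94115 in WT libraries 1 to 4. They were 123888 in the unnumbered Cd36KO library and 100061, 118720 and 100270 in Cd36KO libraries 2, 3 and 4. Every Cd36KO value thus exceeded every WT value, although the closest pair differed by a small margin. This came to a log2 fold change of 0.35 (SE 0.14, unadjusted p = 0.0140 and adjusted p = 0.171 by DESeq2). The adjusted p ranged from 0.0742 to 0.866 over the alternatives. As a share of library counts mt-Nd1 overlapped between groups, with 2.85% ± 0.451 in WT and 3.47% ± 0.279 in Cd36KO. Its share of mitochondrial counts also overlapped, with 10.3% ± 3.20 in WT and 11.4% ± 0.921 in Cd36KO. That share was highest in WT library 1, at 15.1%.

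mt-Nd2 (ENSMUSG00000064345, chrM:3914-4951) encodes another membrane subunit of complex I. Its normalized counts were 163176, 152782, 184661 and 136474 in WT libraries 1 to 4. They were 101261 in the unnumbered Cd36KO library and 161724, 148030 and 113995 in Cd36KO libraries 2, 3 and 4. The unnumbered library and library 4 were lowest, and the groups overlapped. DESeq2 gave a log2 fold change of -0.28 (SE 0.18, adjusted p = 0.482), which was -0.17 without the unnumbered library and -0.56 with the muscle score as a covariate (adjusted p = 0.101).

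mt-Nd4 (ENSMUSG00000064363, chrM:10167-11544), a proton-pumping subunit of complex I, was the most abundant member and held 57.0% of all mitochondrial counts. Its normalized counts were 236367, 438357, 588542 and 672581 in WT libraries 1 to 4. They were 656258 in the unnumbered Cd36KO library and 548710, 575773 and 525998 in Cd36KO libraries 2, 3 and 4. WT spanned the whole Cd36KO range, with WT library 1 the lowest and WT library 4 the highest of all 8. The coefficient of variation was 39.5% in WT and 9.85% in Cd36KO, and 20.9% in WT without library 1. The log2 fold change was 0.25 (SE 0.26, adjusted p = 0.714 by DESeq2), 0.025 without WT library 1 and 0.45 without WT library 4. WT library 1 also held the most muscle RNA, and with the muscle score as a covariate the log2 fold change was 0.11.

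mt-Nd5 (ENSMUSG00000064367, chrM:11742-13565), also a proton-pumping subunit, had normalized counts of 10509, 11796, 16186 and 13670 in WT libraries 1 to 4. The values were 10228 in the unnumbered Cd36KO library and 12960, 12516 and 12667 in Cd36KO libraries 2, 3 and 4. The groups overlapped throughout, with a log2 fold change of -0.11 and a 95% interval of -0.44 to 0.22. mt-Nd3 (ENSMUSG00000064360, chrM:9459-9806), a small membrane subunit, had 23 to 67 counts per library and a log2 fold change of 0.24 (SE 0.34). WT libraries 3 and 4 were its lowest, and its log2 fold change was 0.061 without WT library 4 and 0.50 without WT library 1.

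mt-Nd4l (ENSMUSG00000065947, chrM:9877-10173), which overlaps the start of mt-Nd4 by 7 bases and is translated from the same mRNA, was almost without counts. It had 2 counts in WT library 1, 1 in Cd36KO library 2 and 0 in the other 6 libraries. A count of 0 allows a share of up to 7.32e-05% to 0.000110% of counts in those 6 libraries. No fold change was therefore read from it. Its mRNA partner mt-Nd4 had 261844 counts or more in every library, and Gm10222 matched bases 1 to 294 of the 297 bases of mt-Nd4l.

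mt-Nd6 (ENSMUSG00000064368, chrM:13552-14070) is transcribed from the opposite strand and overlaps the end of mt-Nd5 by 14 bases. Its normalized counts were 172, 106, 79.98 and 71.2 in WT libraries 1 to 4. They were 86.9 in the unnumbered Cd36KO library and 163, 80.8 and 317 in Cd36KO libraries 2, 3 and 4. Cd36KO library 4 stood highest, and the groups overlapped. Its log2 fold change was 0.59 (SE 0.41, adjusted p = 0.513 by DESeq2), and 0.034 without Cd36KO library 4, 0.92 without WT library 1 and 1.07 with the muscle score as a covariate. Set against the 12 mRNAs of the other strand, mt-Nd6 counts came to 0.00649% to 0.0270% in WT and 0.00799% to 0.0356% in Cd36KO. The log2 ratio differed by 0.29 (exact two-sided permutation p = 0.686 over 70 arrangements, smallest possible p 0.0286). This difference was -0.15 without Cd36KO library 4 and 0.69 without WT library 1. If counting ignored strand, part of these reads may be those of mt-Nd5 or of antisense RNA, which was not tested.

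mt-Cytb (ENSMUSG00000064370, chrM:14145-15288) encodes cytochrome b, the only complex III subunit of this genome. Its normalized counts were 113979, 117121, 102117 and 168025 in WT libraries 1 to 4. They were 94421 in the unnumbered Cd36KO library and 140676, 144634 and 127461 in Cd36KO libraries 2, 3 and 4. The highest value was a WT library and the lowest a Cd36KO library. DESeq2 put the log2 fold change at 0.02, within a 95% interval of -0.37 to 0.40, and its sign changed when single libraries were left out.

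The complex IV genes encode the catalytic core of cytochrome c oxidase. mt-Co1 (ENSMUSG00000064351, chrM:5328-6872) had normalized counts of 17781, 10700, 11426 and 12086 in WT libraries 1 to 4. The values were 10543 in the unnumbered Cd36KO library and 13530, 11317 and 8250 in Cd36KO libraries 2, 3 and 4. WT library 1 stood above all others, and the log2 fold change moved from -0.25 (SE 0.20) to -0.06 without it.

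mt-Co2 (ENSMUSG00000064354, chrM:7013-7696) and mt-Co3 (ENSMUSG00000064358, chrM:8607-9390) were low, with 87 to 220 and 133 to 386 counts per library. Their log2 fold changes were 0.29 (SE 0.23) and 0.46 (SE 0.25), with adjusted p of 0.596 and 0.359 by DESeq2. That of mt-Co2 was 0.18 without WT library 4 and 0.49 with the muscle score as a covariate. Both overlapped between groups. The nuclear copies of mt-Co2 and mt-Co3 covered nearly the whole gene, and their part in these counts was not tested.

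The ATP synthase genes mt-Atp8 and mt-Atp6 share 1 mRNA and encode parts of its membrane sector. mt-Atp6 (ENSMUSG00000064357, chrM:7927-8607) had normalized counts of 137, 150.3, 138 and 128 in WT libraries 1 to 4. The values were 252 in the unnumbered Cd36KO library and 169, 183 and 226 in Cd36KO libraries 2, 3 and 4. All Cd36KO values lay above all WT values, and the raw counts behind them were 117 to 296. The Cd36KO mean was 207 ± 38.1 and the WT mean 138 ± 9.33 (SD of 4 libraries), and the log2 fold change was 0.59 (SE 0.19, unadjusted p = 0.00226 and adjusted p = 0.0634 by DESeq2).

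mt-Atp6 thus missed the threshold, and over the alternatives its adjusted p ranged from 0.0353 to 0.890. It passed only without Cd36KO library 2, the lowest of its group, with a log2 fold change of 0.67 and an adjusted p of 0.0353. With the muscle score as a covariate the log2 fold change was 0.75 and the adjusted p was 0.0829. As a share of mitochondrial counts mt-Atp6 overlapped between groups, with 0.0164% ± 0.00445 in WT and 0.0215% ± 0.00441 in Cd36KO.

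mt-Atp8 (ENSMUSG00000064356, chrM:7766-7969) had 5 to 16 counts per library, and its log2 fold change of 0.19 had a 95% interval of -0.86 to 1.23. Its count was 3.88% to 13.7% of that of mt-Atp6 in WT and 3.98% to 8.16% in Cd36KO. The log2 ratio of the pair differed by -0.22 between groups (exact two-sided permutation p = 0.629). This depth allows no statement on whether the ratio differed.

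To ask about the make-up of the mitochondrial RNA apart from its amount, counts were also scaled to the mitochondrial mRNAs themselves. The factor was the median of their count ratios, from 12 of the 13 mRNAs, as mt-Nd4l with counts of 0 could not enter. This scaling, in which low and abundant members weigh alike, moved the median log2 fold change of all genes to -0.22, and scaling to the 6 abundant members left it at -0.02. No member passed 0.05 by DESeq2, where 4.99% of 10587 tested genes did, 20 higher and 508 lower, against 137 higher and 147 lower with counts scaled to all genes. mt-Nd2 and mt-Co1 were the 2 of 12 members with an unadjusted p under 0.05, where 18.7% of all tested genes lay.

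mt-Nd2 gave scaled counts of 174023, 163846, 208529 and 162576 in WT libraries 1 to 4. It gave 107490 in the unnumbered Cd36KO library and 152972, 135219 and 108155 in Cd36KO libraries 2, 3 and 4. All Cd36KO values lay below all WT values on this scale, as did 12.4% of all genes. As a share of mitochondrial counts, however, mt-Nd2 overlapped between groups, with 18.9% ± 5.36 in WT and 13.5% ± 2.72 in Cd36KO. With the scaled counts the log2 fold change of mt-Nd2 was -0.49 (SE 0.17, unadjusted p = 0.00381 and adjusted p = 0.0650 by DESeq2). It passed without Cd36KO library 2 (adjusted p = 0.0264) and with the muscle score as a covariate (adjusted p = 0.0169), whereas scaling to the 6 abundant members alone gave -0.32 and an adjusted p of 0.376.

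mt-Co1 had a log2 fold change of -0.45 on this scale (SE 0.21, unadjusted p = 0.0286 and adjusted p = 0.203 by DESeq2), and its groups overlapped. mt-Atp6 moved to 0.39 (adjusted p = 0.303) and mt-Nd1 to 0.15 (adjusted p = 0.704), and both then overlapped between groups.

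**Figure D4:**
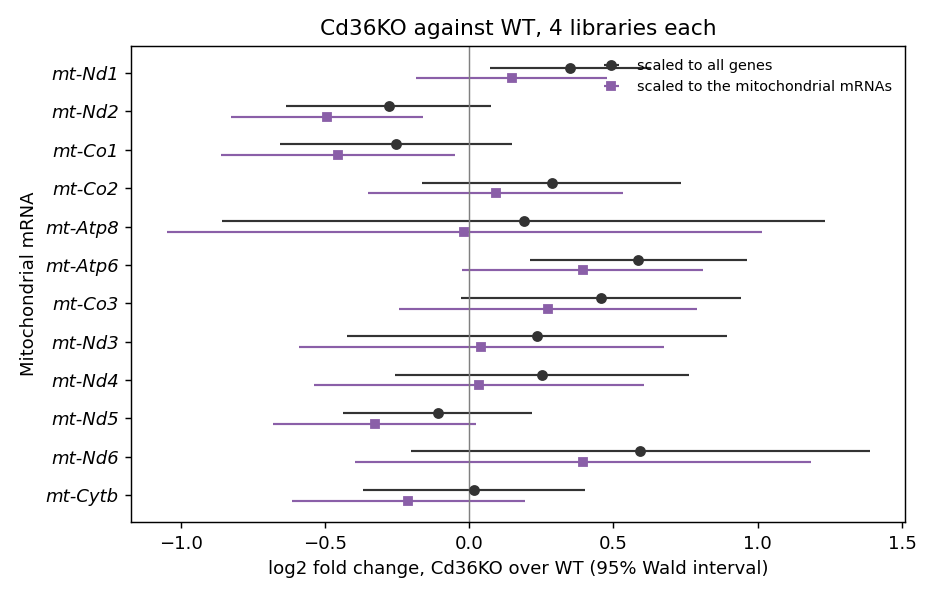
Log2 fold change of Cd36KO over WT with its 95% Wald interval for 12 mitochondrial mRNAs, with counts scaled to all genes (black circles) or to the mitochondrial mRNAs (purple squares). The intervals of mt-Nd1 (0.35) and mt-Atp6 (0.59) lie above 0 only with the first scaling and those of mt-Nd2 (-0.49) and mt-Co1 (-0.45) below 0 only with the second, and none passed after adjustment.

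The nuclear partners of these genes were counted in 8 lists of 137 genes. Of the nuclear subunits, 7 of 36 tested complex I genes rose in Cd36KO and 0 fell, 4 of 9 complex III genes rose and 0 fell, and 3 of 13 complex IV genes rose and 0 fell. Among ATP synthase genes 4 of 16 rose and 1 fell. The median log2 fold changes of these lists were 0.40, 0.47, 0.41 and 0.26, against -0.01 over all genes and 0.24 over the 12 mitochondrial mRNAs. Over all genes 1.42% were called higher and 1.53% lower. edgeR called 0 genes in these lists, with 18, 6, 6 and 9 at an unadjusted p under 0.05, against 16.1% of all genes. The 20 DESeq2 calls over all 8 lists became 2 without the unnumbered Cd36KO library and 48 without WT library 4. With the muscle score as a covariate there were 6 calls, and the medians of the 4 complex lists were 0.44, 0.58, 0.40 and 0.38. The part of the lower white adipocyte genes in these changes was not tested. Whether nuclear and mitochondrial subunits changed by different amounts was not tested.

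The largest called changes in these lists were Ndufa5 (0.82, adjusted p = 0.00143) and Ndufs8 (0.74, adjusted p = 0.0272) of complex I. They were Uqcr10 (0.80, adjusted p = 0.00882) and Uqcrc1 (0.57, adjusted p = 0.0326) of complex III, and Cox7a2 (0.68, adjusted p = 0.0332) and Cox7a1 (0.59, adjusted p = 0.0273) of complex IV, all by DESeq2. Of ATP synthase they were Atp5o (0.78, adjusted p = 0.00674) and Atp5g1 (-1.49, adjusted p = 0.000715), also by DESeq2. Atp5g1 has paralogs for the same subunit, between which sharing of reads was not tested. The call was lost in 2 of 17 alternatives for Ndufa5, 9 for Ndufs8, 4 for Uqcr10 and 10 for Uqcrc1. It was lost in 11 for Cox7a2, 11 for Cox7a1, 5 for Atp5o and 3 for Atp5g1. Cox7a1 and Ucp1 were also on the brown adipocyte list, of which 3 of 10 rose by DESeq2 and 0 by edgeR, with 6 at an unadjusted p under 0.05 by edgeR, against 16.1% of all genes. The third was Cidea, a lipid droplet protein, with a log2 fold change of 0.97 (adjusted p = 5.9e-06 by DESeq2 and 0.0749 by edgeR). Of the 10, 6 had a log2 fold change above 0, and their summed level overlapped between groups, at 11355 to 14950 CPM among WT and 13882 to 15218 CPM among Cd36KO libraries. Ucp1 had a log2 fold change of 0.82 (adjusted p = 0.00843 by DESeq2 and 0.126 by edgeR). The part of adipocyte content in these changes was not tested.

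Of 56 tested factors that make and keep mitochondrial mRNAs, 1 (1.79%) passed by DESeq2, against 2.95% of all tested genes. Of the genes for mitochondrial DNA transcription (7), maintenance (9) and biogenesis control (8), 0 passed by DESeq2 and 0 by edgeR, with 1, 2 and 2 at an unadjusted p under 0.05 by edgeR, against 16.1% of all genes. Tfam, which packages the genome and starts transcription, had a log2 fold change of -0.27 (SE 0.31), which was -0.014 without WT library 1 and -0.43 without WT library 4. Polrmt, the mitochondrial RNA polymerase, had 0.56 (SE 0.27, adjusted p = 0.294 by DESeq2), and Tfb2m, its promoter-opening partner, had -0.09 (SE 0.38).

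Of 32 RNA processing and decay genes, 1 rose and 0 fell by DESeq2, where 1.42% of all genes were called higher and 1.53% lower. edgeR called 0 of them, with 7 at an unadjusted p under 0.05, against 16.1% of all genes. The gene that rose was Tbrg4, a protein of the FASTK family that acts on mitochondrial mRNAs. WT libraries had 238 ± 16.9 normalized counts of it and Cd36KO libraries 363 ± 79.3 (SD of 4 each), or a log2 fold change of 0.61 (adjusted p = 0.0451 by DESeq2 and 0.140 by edgeR). All Cd36KO values lay above all WT values, but the call was lost in 13 of 17 alternatives, 6 of them with 1 library left out (WT libraries 2, 3 and 4, the unnumbered Cd36KO library and Cd36KO libraries 3 and 4).

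Lrpprc, which stabilises mitochondrial mRNAs together with Slirp, varied widely between libraries. Its normalized counts were 335, 832, 949 and 1601 in WT libraries 1 to 4. They were 1901 in the unnumbered Cd36KO library and 1082, 1437 and 1446 in Cd36KO libraries 2, 3 and 4. WT library 1, the lowest for mt-Nd4, was also the lowest for Lrpprc. This amounted to a log2 fold change of 0.66 (SE 0.34, adjusted p = 0.329 by DESeq2), and it moved to 0.38 without WT library 1 and to 1.06 without WT library 4, where it passed (adjusted p = 0.0115 by DESeq2). The log2 fold change of Slirp was 0.14 (SE 0.24), and 0.40 without WT library 4.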

How the data were processed

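Bulk RNA-seq libraries of BAT from 4 WT and 4 Cd36KO mice were grouped by their titles. By the methods section of the study, single-end reads of 75 cycles were trimmed (bbduk), aligned to mm10 (STAR) and summed by gene (HTSeq-count) in a digital mRNA-seq service pipeline. The submitters' processing notes list Trimmomatic, HISAT2 and DESeq2 with GRCm38. Annotation, strand setting, molecular identifiers and the handling of reads with several matches are not given in the sources used here. The deposited counts are whole-number reads per gene, not normalized. The authors' log2 values were checked to be log2(count / size factor + 1) and served only for limma 3.58.1. Total counts per library ranged from 2679785 to 4097953. With this depth a count of 0 allows 3 counts, and intervals cover counting error only.

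The members and gene lists were chosen with earlier results of these data known. DESeq2 1.42.0 (Wald test, default filters, genotype as the only term, 95% intervals from the SE) was fitted over all genes in R 4.3.3, with Benjamini-Hochberg adjustment and a threshold of 0.05. edgeR 4.0.16 (quasi-likelihood), TMM factors, a filter of 10 counts in 4 libraries, no independent filtering, size factors without the mitochondrial genes, the replicate block, a muscle score covariate, leaving out each library, and limma were the alternatives. The replicate block used the 6 libraries whose number occurs in both groups, so WT library 1 and the unnumbered Cd36KO library were left out of it. Chosen after seeing the data were scaling to the 6 abundant members, the share without mt-Nd4 and those 6 libraries without the block. So was the muscle covariate for the nuclear lists. Samples of a group are labelled as separate, and p-values measure the spread between them, which may be technical in part. Named genes were all members, Tfam, Polrmt, Tfb2m, Lrpprc and Slirp, called genes of the regulatory lists, and the 2 called genes with the largest change of each complex list. Counts were also simulated for 4 libraries in each group, with 200 changed genes. Every gene had the same fixed dispersion, and only genes above a minimum mean count were changed. DESeq2 recovered 61.1% of 2-fold and 98.2% of 3-fold changes among 10004 genes, with 6.32% of its calls false. For edgeR these were 64.4% and 99.1% among 9942 genes, with 2.34% false. The rates may not hold for genes with few counts or a wider spread. Sequences were matched with BLAST+ 2.17.0. Symbols matched 30934 of 31053 identifiers. Exact permutation tests used SciPy 1.17.1.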

Additional observations from a re-analysis of the deposited data

Results flagged for a closer look

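Of 82 groups of 4 libraries examined for a library far from the other 3 (Dixon's test), 5 had one, where chance alone gives about 1 in 20, or 4.1. mt-Co1 made up 2.78% of mitochondrial counts in WT library 1, against 1.101% to 1.32% in the other WT libraries. The unnumbered Cd36KO library was lowest of its group in 3 cases. There mt-Cytb made up 9.47% of mitochondrial counts, against 14.3% to 14.4% in the other Cd36KO libraries, and mt-Atp8 made up 0.00101%. mt-Nd5 had a log2 normalized count of 13.32 in that library. Outside the mitochondrial genome, Atp5o had a log2 normalized count of 12.38 in WT library 4, the highest of its group.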

How the results depend on the processing

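No member passed in 16 of 17 alternatives with counts scaled to all genes, and 1 (mt-Atp6) did without Cd36KO library 2. Leaving out each library gave 0 to 1 members called, 0 to 1 higher, and 0 to 1 with counts scaled to the mitochondrial mRNAs, where the muscle score as a covariate also gave 1 (mt-Nd2). The calls on nuclear lists were less stable. They went from 20 to 0 with edgeR, to 6 with the muscle covariate and to 4 with the replicate block, which used 6 libraries. The lists were not counted in the same 6 libraries without the block. With each library left out, the calls ran from 2 (without the unnumbered Cd36KO library) up to 48 (without WT library 4). Of 153 alternative values of the 9 named nuclear calls, 68 lost the call, from 2 of 17 for Ndufa5 to 13 of 17 for Tbrg4. The calls on the lists came to 4 without WT library 2, 5 without WT library 3, 9 without Cd36KO library 3 and 5 without Cd36KO library 4. Replicate numbers 2, 3 and 4 were shared by both groups, but the deviations of equal numbers from their group means correlated at -0.13, 0.42 and 0.14, and 3 of 6 libraries correlated best with their own number, so the numbers were not taken as pairs. With the replicate block no member passed, and the log2 fold change turned to -0.018 for mt-Nd4 (-0.039 in the same 6 libraries without the block), 0.028 for Tfam and 0.078 for Tfb2m. The fit with the block called 9 muscle genes, 5 white adipocyte genes and the biogenesis regulator Ppargc1a, named after its values were seen. Ppargc1a had 0.77 (adjusted p = 0.0201 by DESeq2), against 0.51 (adjusted p = 0.231) without the block in all 8 libraries. As this fit also left out WT library 1 and the unnumbered Cd36KO library, the block and the missing libraries cannot be told apart in these calls. The muscle covariate turned the log2 fold change to -0.30 for mt-Atp8, -0.12 for mt-Cytb and 0.046 for Tfam. Scaled to the mitochondrial mRNAs, mt-Nd4 turned to -0.29 with the block, -0.33 in the 6 libraries without it and -0.059 with the muscle covariate. There mt-Atp8 turned to 0.021 and mt-Nd3 to -0.040 with the sum of members as size factor, and mt-Atp8 to 0.16 with the 6 abundant members. Leaving out single libraries moved the log2 fold change from -0.055 to 0.54 for mt-Atp8, -0.20 to 0.014 for mt-Nd5, -0.067 to 0.19 for mt-Cytb and -0.31 to 0.27 for Tfb2m. It ran from 0.0047 to 0.40 for Slirp. On the mitochondrial scale the ranges were -0.22 to 0.32 for mt-Atp8, -0.12 to 0.30 for mt-Nd3, -0.20 to 0.30 for mt-Nd4, -0.15 to 0.71 for mt-Nd6 and -0.32 to 0.034 for mt-Cytb, 0.035 to 0.26 for mt-Nd1, 0.23 to 0.47 for mt-Atp6 and -0.58 to -0.29 for mt-Co1. The log2 ratio difference ranged from -0.51 to 0.10 for mt-Atp8 to mt-Atp6 and from -0.15 to 0.69 for mt-Nd6 to the other strand, which the block put at 0.93. The log2 fold change of mt-Nd6 was 0.94 with the block and 1.13 in the same 6 libraries without it. Over all genes, the 284 calls became 14 with edgeR, 8 with limma, 171 without independent filtering, 184 with the muscle covariate, 221 with the block (262 in the same 6 libraries without it), and 70 (without WT library 2) to 498 (without WT library 4) with each library left out. The 528 calls on the mitochondrial scale became 76 with edgeR, 185 with the sum of members, 229 with the muscle covariate and 160, 37 higher and 123 lower, with the 6 abundant members. The causes were not tested. The low depth of 7 mRNAs, with 5876 counts over all libraries, limits what can be said of them. Shares of rRNAs and tRNAs, the addition of nuclear copies and the ratio of mt-Nd4l to mt-Nd4 were not run.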

Other observations

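Because Lrpprc and mt-Nd4 were both lowest in WT library 1, relations over the 8 libraries were computed after seeing these values, for 5 factors (Tfam, Polrmt, Tfb2m, Lrpprc, Slirp) against 12 mitochondrial mRNAs, 60 in all, on log2 normalized counts plus 1. None had an adjusted p under 0.05 by exact permutation. The lowest adjusted p for Pearson r, 0.0848, was shared by 4 relations, 3 positive and 1 negative. Lrpprc and mt-Nd4 gave a Pearson r of 0.94 (exact permutation p = 0.00347) and a Spearman rho of 0.76 (exact permutation p = 0.0368), and r was 0.67 without WT library 1 and the unnumbered Cd36KO library, the 2 farthest from the median of Lrpprc. Tfam ran the other way against mt-Nd4, with an r of -0.87 (exact permutation p = 0.00461) and a rho of -0.79 (exact permutation p = 0.0279), and r was -0.43 without WT libraries 1 and 2. Polrmt and mt-Nd1 gave an r of 0.89 (exact permutation p = 0.00313) and a rho of 0.88 (exact permutation p = 0.00724), and r was 0.79 without WT library 3 and the unnumbered library. Tfb2m and mt-Cytb gave an r of 0.86 (exact permutation p = 0.00565) and a rho of 0.76 (exact permutation p = 0.0368), and r was 0.71 without WT library 4 and Cd36KO library 2. The adjusted p of rho was 0.245 for all 4.

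As these relations mix the 2 genotypes, they were also computed on deviations from the genotype means, with libraries permuted within genotype (576 arrangements). Again none of the 60 had an adjusted p under 0.05. Lrpprc and mt-Nd4 gave an r of 0.95 (exact permutation p = 0.00694, adjusted p = 0.208), Tfam and mt-Nd4 -0.87 (exact permutation p = 0.0347, adjusted p = 0.298, a relation that came mainly from the WT libraries), Polrmt and mt-Nd1 0.79 (exact permutation p = 0.0399, adjusted p = 0.299), and Tfb2m and mt-Cytb 0.87 (exact permutation p = 0.0243, adjusted p = 0.298). The lowest p was that of Tfb2m and mt-Co3, with an r of -0.84 (exact permutation p = 0.00174, the smallest these arrangements can give, adjusted p = 0.104).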
